A study of Mus musculus with 4 samples.

Results

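Immediate early response genes are transcribed within minutes of a stimulus without new protein synthesis. The members described here are Fos, Fosb, Jun, Junb, Egr1, Atf3, Ier2, Dusp1, Zfp36 and Klf4, taken as the rows of the deposited count table whose gene symbol equals 1 of these names. All 10 were found among the 25265 genes of the table. The data are whole-testis RNA-seq libraries of C57BL/6 mice at postnatal day 56, made from total RNA depleted of ribosomal RNA. There were 2 libraries labelled control and 2 labelled Ythdf2-vKO, and the series title describes the mutation as specific to germ cells. The driver of the deletion, the deleted segment and the alleles of the controls are not given in the sources used here. The labels do not tie libraries to animals, so p-values measure only the spread between these libraries, which may be technical.

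When a cell receives a growth factor, stress or calcium signal, MAP kinases and CREB-type factors act on regulatory elements near the starts of these genes, and their transcripts appear quickly and decay quickly. FOS and JUN proteins pair to form AP-1, which binds DNA and drives a second wave of genes. DUSP1, a phosphatase that switches MAP kinases off, and ZFP36, which binds AU-rich elements and directs transcripts to deadenylation, shut the response down. YTHDF2, the product of the targeted gene, also directs transcripts to deadenylation, by binding those that carry N6-methyladenosine.

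Short stretches of the promoters show what the members do and do not share. RefSeq promoter sequence for build GRCm38.p6 matched 8 of the 10 members, all but Egr1 and Ier2. In the 250 bases before the start, on either strand, TGACG, the core of the cyclic AMP response element bound by CREB and ATF proteins, occurred in 6 of 8 members (Fos, Fosb, Junb, Atf3, Dusp1 and Klf4), against 17.8% of all 32851 promoters. The full element TGACGTCA, which contains TGACG, occurred in Dusp1 alone, against 1.55% of promoters. A CArG box, the sequence bound by serum response factor, occurred in Zfp36 alone (1.47% of promoters). The AP-1-like octamer TGACATCA occurred in Jun alone (2.93% of promoters), and the AP-1 heptamer TGANTCA in no member (6.75%). GCGNGGGCG, the zinc finger site bound by EGR1, occurred in Fosb, Zfp36 and Klf4 (4.7% of promoters), and TATAAA in Fos (12.4%). These matches are descriptions of letters, and a start chosen elsewhere gives another window. The last 150 bases before the start are printed for 4 members that between them hold all but the AP-1 heptamer, 5′ to 3′ on the strand of the gene, with matches to any of these motifs in capitals.
Fos, chr12:85473740-85473889, plus strand: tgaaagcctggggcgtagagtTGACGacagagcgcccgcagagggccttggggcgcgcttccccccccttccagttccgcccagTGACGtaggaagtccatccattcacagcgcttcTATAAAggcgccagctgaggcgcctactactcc
Jun, chr4:95052223-95052372, minus strand: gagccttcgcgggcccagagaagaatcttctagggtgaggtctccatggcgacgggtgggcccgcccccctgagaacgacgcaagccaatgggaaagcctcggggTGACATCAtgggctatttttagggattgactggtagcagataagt
Dusp1, chr17:26508473-26508622, minus strand: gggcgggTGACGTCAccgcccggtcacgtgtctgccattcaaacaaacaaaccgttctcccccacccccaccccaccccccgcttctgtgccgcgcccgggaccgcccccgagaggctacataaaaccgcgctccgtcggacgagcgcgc
Zfp36, chr7:28379229-28379378, minus strand: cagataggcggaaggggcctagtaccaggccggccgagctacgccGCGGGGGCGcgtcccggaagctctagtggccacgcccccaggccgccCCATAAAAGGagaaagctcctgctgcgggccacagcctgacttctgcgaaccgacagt

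At the other end of the transcript, the nonamer TTATTTATT, the AU-rich sequence bound by ZFP36, lies in the 3′ UTR of 3 members in the GENCODE M21 transcripts: Fos, Dusp1 with 2 copies, and Zfp36 itself. Each site is shown within 27 bases of transcript sequence, 5′ to 3′, with the nonamer in capitals.
Fos, bases 655 to 663 of an 815-base 3′ UTR: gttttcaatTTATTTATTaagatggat
Dusp1, bases 103 to 111 of a 690-base 3′ UTR: agctggtccTTATTTATTtaacacccc
Dusp1, bases 392 to 400 of the same 3′ UTR: tttttacctTTATTTATTtttgtgtag
Zfp36, bases 589 to 597 of a 774-base 3′ UTR: atgacgactTTATTTATTgtattaaga
In the last 500 bases of the 3′ UTR, the nonamer occurred in 3 of the 9 members whose 3′ UTR is that long, against 3.51% of 11758 protein-coding genes. The shorter ATTTA, which every nonamer contains, occurred in 7 of these 9 against 58.3%. GGACT, a common form of the N6-methyladenosine consensus, occurred within 250 bases of the end of the coding sequence in 6 of 10 members, against 46.5% of 14060 genes. N6-methyladenosine itself was not measured.

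Libraries held between 24862518 and 29561182 counts. Counts of the targeted gene, Ythdf2, were not lower in vKO: they were 1193 and 1604 in control against 1774 and 1807 in vKO (log2 fold change 0.35, SE 0.13, adjusted p 0.238). The deleted segment is not given, and whole testis also holds cells other than germ cells. A count over the whole gene therefore cannot show whether the deletion took place. Groups are therefore named by their labels, and "vKO" stands for the libraries so labelled. Levels are CPM, counts scaled to a common library size, after TMM, which also corrects for composition. Tests are edgeR's quasi-likelihood F test over 21132 genes, with Benjamini-Hochberg adjustment and a call at an adjusted p under 0.05. Transcript GC content moved with the libraries. Across genes, the rank correlation between GC and how far a library lay from the mean of all 4 was 0.0238 and -0.399 in control replicates 1 and 2, and 0.254 and 0.189 in vKO.

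All 10 members lay higher on average in the libraries labelled vKO, and none passed the test. In whole tissue, a difference in the number of cells of a type and one in RNA per cell cannot be told apart. In 9 of the 10, both vKO libraries lay above both control libraries, where 21.9% of all genes in the table did so. Fosb was the exception. By edgeR, 0 of the 9 members tested were called, against a background of 0.393% of genes called in either direction, 0.279% called higher and 0.114% called lower. At an unadjusted p under 0.05, edgeR gave 4 of the 9 (Jun, Egr1, Ier2 and Junb), all higher, where 7.65% of all genes tested were higher at that level. Scaling by library totals alone gave 6 of the 9 at that level, where 10.3% of all genes were. A DESeq2 Wald test also called 0 members, where 0.833% of the 16448 genes with an adjusted p were called higher. Fos had no adjusted p in that test and could not be called. The test gave the same numbers of calls as the authors' deposited values, 137 higher and 80 lower. Jun had an adjusted p of 0.0615 in both, so the 2 are not separate results. The median log2 fold change of the 9 was 0.55, against 0.00265 for all genes tested. Atf3 was too low to be tested, and Fos passed the filter on low counts only through its vKO libraries, so these 9 are not a neutral choice of the 10. In a fit with no filter, all 10 had a log2 fold change above 0, with a median of 0.63 and 0 called, where 50.5% of all genes lay above 0. The members share the same 4 libraries and are not independent of each other.

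**Figure D1:**
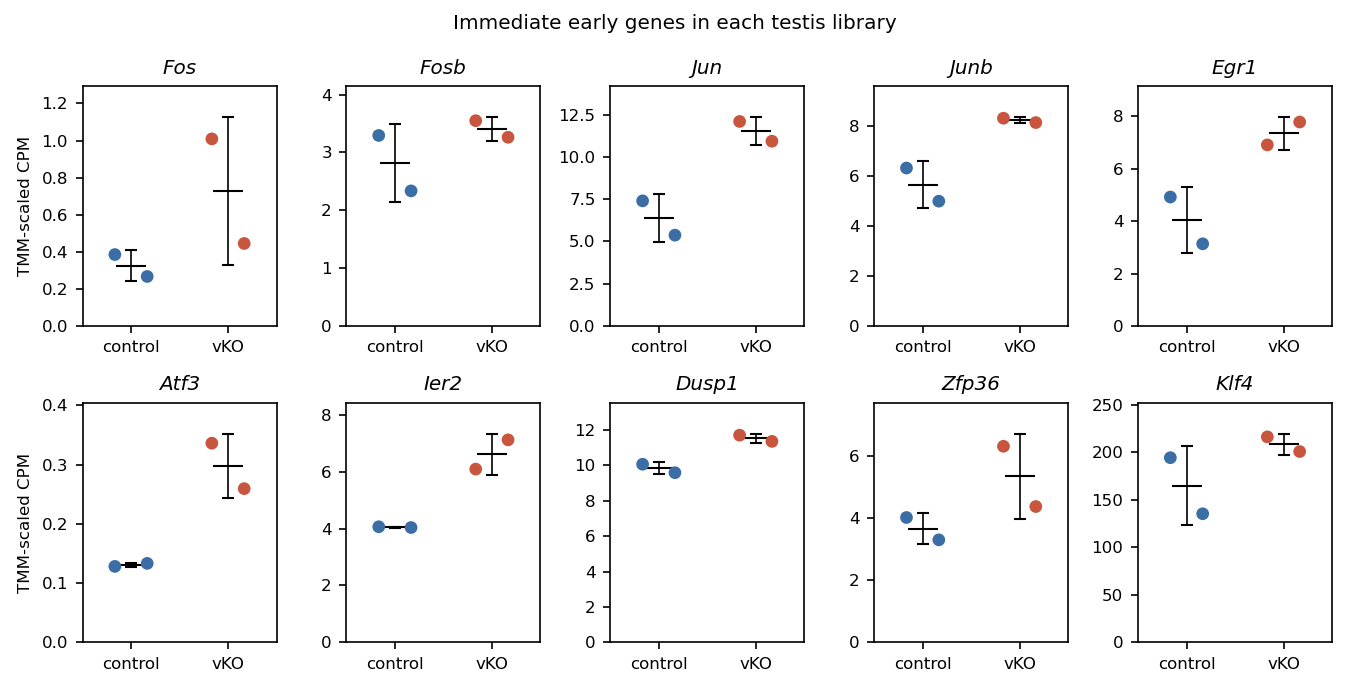
TMM-scaled CPM of each member (vertical axes, each from 0) in the 2 control libraries (blue, replicate 1 to the left of replicate 2) and the 2 libraries labelled vKO (red, in the same order), with group means and SD as black bars. The vKO points lie above the control points in 9 of 10 panels, and in Fosb vKO replicate 2 lies just under control replicate 1.

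The AP-1 subunits come first. Jun (ENSMUSG00000052684, minus strand of chromosome 4, 95049034 to 95052222 in GRCm38), a single-exon gene for the JUN subunit of AP-1, had 173 and 161 control counts and 324 and 295 vKO counts. As CPM these were 7.40 and 5.37 against 12.1 and 10.9, or 6.39 ± 1.44 against 11.5 ± 0.827 (SD, n = 2 each). The groups did not overlap, and the lower vKO library stood 1.48 times above the higher control library. The log2 fold change was 0.86 (SE 0.21, a fold of 1.81), and its adjusted p of 0.105 was the lowest of the members. In the authors' deposited table the adjusted p of Jun was 0.0615. Without control replicate 1, which leaves replicate 2 as the only control and assumes that it varies as the vKO libraries do, Jun passed at an adjusted p of 0.000676 and a log2 fold change of 1.09. In that fit 4.72% of all genes were called higher. Without control replicate 2 the log2 fold change of Jun was 0.64 and its adjusted p 0.0865. With all 4 libraries kept, scaling by library totals alone brought Jun past the threshold, at an adjusted p of 0.0415, where 0.857% of all genes were called higher. The antisense gene Junos overlaps Jun on the other strand, with counts of 26 and 43 in control and of 26 in each vKO library.

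Junb (ENSMUSG00000052837, minus strand of chromosome 8, 84974484 to 84978718), a JUN paralog that is a weaker activator, had 6.33 and 5.003 CPM in control and 8.33 and 8.16 in vKO. The vKO libraries were nearly equal and both stood above control, by 1.29 times at the nearest pair. The fitted difference on the log2 scale was 0.54 (SE 0.21), at an adjusted p of 0.262. The gene Prdx2 overlaps Junb on the opposite strand, with 878 and 1530 counts in control and 1516 and 1555 in vKO. Whether the counting used strand is not given in the sources used here, so reads from the overlap cannot be told apart. The same holds for Junos.

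The FOS partners were scarce. Fos (ENSMUSG00000021250, plus strand of chromosome 12, 85473890 to 85477273), the classic serum-induced AP-1 subunit, was counted 9 and 8 times in control and 27 and 12 times in vKO. That is 0.385 and 0.267 CPM against 1.01 and 0.445. The upper group mean rests on vKO replicate 1, which stood 2.27 times above vKO replicate 2. Its log2 fold change of 1.16 was the largest of the tested members and had the largest error (SE 0.64, adjusted p 0.447). Without vKO replicate 1 it was 0.46. In the authors' deposited table Fos has a log2 fold change of 1.16 (SE 0.88) and no adjusted p.

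Fosb (ENSMUSG00000003545, minus strand of chromosome 7, 19302696 to 19310051), a FOS paralog known for lasting induction in neurons, had 77 and 70 control counts and 95 and 88 vKO counts. Its CPM were 3.29 and 2.33 in control against 3.55 and 3.26 in vKO, and the groups overlapped. Its log2 fold change of 0.28 (SE 0.28) was as large as its error. It was 0.05 without control replicate 2, 0.54 without control replicate 1 and 0.14 with the GC offset described below.

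Atf3 (ENSMUSG00000026628, minus strand of chromosome 1, 191170296 to 191218039), a stress-induced bZIP factor that often represses, had 3 and 4 control counts and 9 and 7 vKO counts. Both vKO libraries held more counts than both control libraries, at a level where single reads matter. It fell under the filter on low counts. The fit with no filter gave a log2 fold change of 1.16 with an SE of 0.90 and an adjusted p of 0.66.

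Of the zinc finger factors, Egr1 (ENSMUSG00000038418, plus strand of chromosome 18, 34859823 to 34864984), which couples growth signals to a second round of transcription, had 115 and 94 control counts and 185 and 210 vKO counts. In CPM, 4.92 and 3.14 stood against 6.91 and 7.78, or 4.03 ± 1.26 against 7.35 ± 0.617 (SD, n = 2 each). The groups did not overlap, with a ratio of 1.41 at the nearest pair, and the control libraries differed 1.57 times from each other. Egr1 had a log2 fold change of 0.88 (SE 0.25, a fold of 1.84, adjusted p 0.152). It was 0.58 without control replicate 2, and 1.22 with an adjusted p of 0.00167 without control replicate 1.

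Klf4 (ENSMUSG00000003032, minus strand of chromosome 4, 55527143 to 55532466) is a Kruppel-like factor known in the testis from post-meiotic germ cells and Sertoli cells. It was by far the most abundant member, with 4537 and 4054 counts in control and 5783 and 5411 in vKO. As CPM these were 194 and 135 against 216 and 201, so that the gap between the groups was 1.03 times at the nearest pair and the gap within control was 1.44 times. The log2 fold change was 0.34 (SE 0.16, adjusted p 0.365). It was 0.10 without control replicate 2, and 0.62 with an adjusted p of 0.000106 without control replicate 1, so the 2 control libraries gave different answers for Klf4.

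Ier2 (ENSMUSG00000053560, minus strand of chromosome 8, 84661331 to 84662852), a single-exon gene for a small nuclear protein, had the tightest control group of the tested members. Its counts of 95 and 121 in control and 163 and 192 in vKO gave 4.06 and 4.04 CPM against 6.09 and 7.12. The lower vKO library stood 1.498 times above the higher control library, a wider gap than for any other tested member. For Ier2 the log2 fold change was 0.70 (SE 0.22, adjusted p 0.191), and it was nearly the same without control replicate 1 (0.703) and without control replicate 2 (0.701). With the GC offset it was 0.48.

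The negative regulators come last. Dusp1 (ENSMUSG00000024190, minus strand of chromosome 17, 26505590 to 26562128), the MAP kinase phosphatase, had 10.1 and 9.57 CPM in control and 11.7 and 11.3 in vKO. Replicates lay close together in both groups, and the groups stood 1.13 times apart at the nearest pair. The log2 fold change was 0.23 (SE 0.17, adjusted p 0.606), the lowest of the tested members, and 0.13 with the GC offset. Ergic1 overlaps Dusp1 on the other strand, with 1244 and 1320 counts in control and 1387 and 1421 in vKO.

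Zfp36 (ENSMUSG00000044786, minus strand of chromosome 7, 28376784 to 28380253), which encodes the AU-rich element binding protein tristetraprolin, had 94 and 99 control counts and 169 and 118 vKO counts. The vKO libraries, at 6.31 and 4.37 CPM, differed 1.44 times from each other, and the lower was 1.09 times the higher control library (4.02 and 3.30 CPM in control). For Zfp36 the log2 fold change was 0.55 (SE 0.26, adjusted p 0.366), and it was 0.26 without vKO replicate 1. Gm44710, annotated antisense to Zfp36, had 56 and 42 control counts and 66 and 53 vKO counts.

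**Figure D2:**
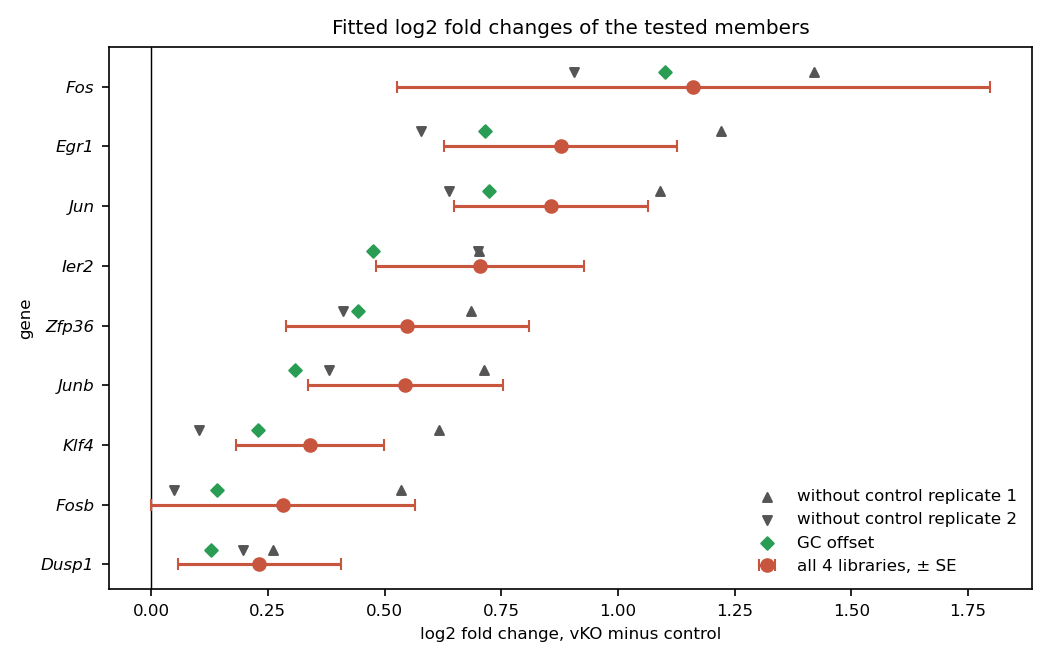
Fitted log2 fold change (horizontal axis, vKO minus control) of the 9 tested members (vertical axis), with red circles and bars for all 4 libraries ± SE, triangles for fits without 1 control library and green diamonds for the GC offset. All markers shown lie above 0, and those of Fosb and Klf4 come closest to 0 without control replicate 2, at 0.05 and 0.10.

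Set on a per-length scale, as CPM per kilobase of the longest transcript, the members covered a wide range of levels. Klf4 led with 54.4 ± 13.7 in control and 68.8 ± 3.61 in vKO (SD, n = 2 each). Next came Dusp1 with 4.24 ± 0.147 and 4.98 ± 0.107, Junb with 3.13 ± 0.519 and 4.56 ± 0.0687, and Ier2 with 2.66 ± 0.0131 and 4.34 ± 0.478. In control, Junb and Ier2 lay within their spread of each other, as they did in vKO. Jun stood at 2.002 ± 0.45 in control and 3.61 ± 0.259 in vKO, and Zfp36 at 1.31 ± 0.182 and 1.92 ± 0.492. Egr1 (0.898 ± 0.281 and 1.64 ± 0.138) and Fosb (0.744 ± 0.179 and 0.9 ± 0.0537) were close to each other in control. Fos and Atf3 closed the order, at 0.155 ± 0.0397 and 0.066 ± 0.00181 in control and 0.345 ± 0.189 and 0.15 ± 0.0274 in vKO.

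The libraries within a group also differed in step across the members. Control replicate 1 lay above control replicate 2 in 9 of 10 members, with Atf3 the exception, and control replicate 2 was the lowest of the 4 libraries in the same 9. In 8 of 10, vKO replicate 1 was the highest library. Egr1 and Ier2 were higher in vKO replicate 2. Averaged over the 9 tested members, the deviation of log2 CPM from the 4-library mean of a gene was -0.12 and -0.49 in control and 0.40 and 0.21 in vKO. The distance between the control libraries on that scale was thus of the same order as the distance between control replicate 1 and the vKO libraries.

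**Figure D3:**
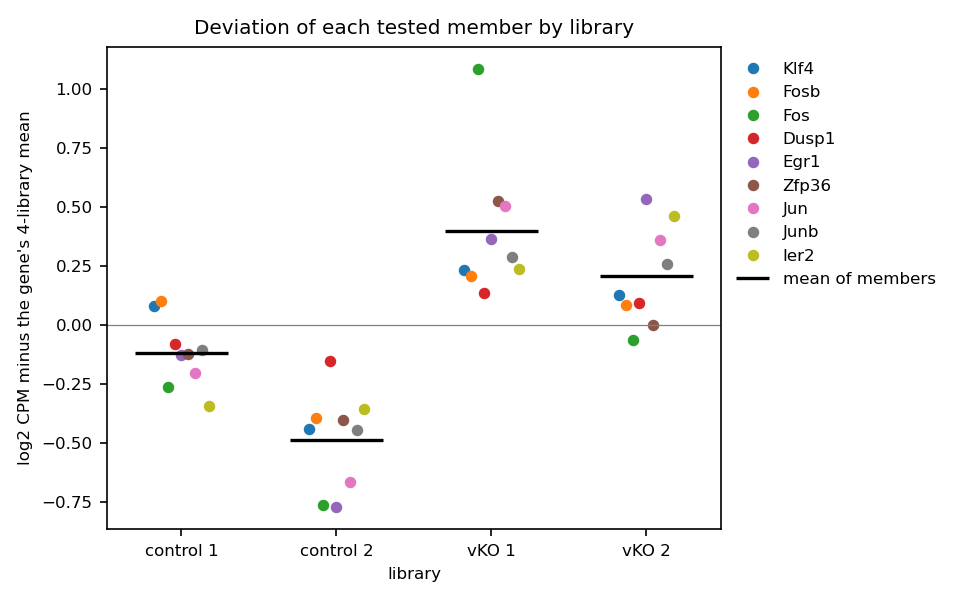
Deviation of log2 CPM from the gene's 4-library mean (vertical axis) for the 9 tested members (coloured points) in each library (horizontal axis), with the mean over members as black bars. The means are -0.12 and -0.49 in control replicates 1 and 2 and 0.40 and 0.21 in vKO replicates 1 and 2.

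Genes with the most similar profile were sought among those with a mean of at least 5 CPM, by the distance of their centred log2 CPM over the 4 libraries from that mean profile. The 5 closest were Adprh, Sesn2, Pcsk1n, Aldh18a1 and Daam2, at distances of 0.0314 to 0.0583, against 0.129 for Junb, the closest member, and 0.8 for Fos, the farthest. Adprh, for an ADP-ribosylarginine hydrolase, had 38.4 and 30.6 CPM in control and 55.4 and 49.0 in vKO (log2 fold change 0.60, adjusted p 0.111). Sesn2, a stress-induced sestrin, had 31.4 and 24.1 CPM in control and 43.5 and 39.1 in vKO (log2 fold change 0.57, adjusted p 0.135). None of the 5 passed the test in the main edgeR fit, though the adjusted p of Daam2 was 0.041 by the DESeq2 Wald test. With library totals alone, Adprh and Daam2 passed in edgeR (adjusted p 0.0362 and 0.0226), where 0.857% of all genes were called higher. With the replicate number as a block, Adprh, Sesn2, Pcsk1n and Daam2 passed, where 2.97% were. The log2 fold changes of the 5 ran from 0.717 to 0.828 without control replicate 1, and from 0.397 to 0.462 without control replicate 2. With 4 libraries this likeness is a description only.

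GC content was high in all members, from 51.9% in Fos to 62.6% in Junb, against a median of 48.9% over all genes tested. Among genes of at least 1 CPM, the median log2 fold change was -0.09 for transcripts under 40% GC, 0.05 from 50 to 55%, 0.14 from 55 to 60% and 0.21 above 60%. In those same upper classes, both vKO libraries lay above both controls in 27.3%, 36.6% and 43.7% of genes. An offset for GC content fitted in each library lowered the median log2 fold change of the tested members from 0.55 to 0.44, and all 9 stayed above 0. With it Junb stood at 0.31, Jun at 0.72 (adjusted p 0.115) and Egr1 at 0.71 (adjusted p 0.191), and 0 of the 9 members were called, where 0.374% of all genes were called higher. At an unadjusted p under 0.05 it gave 2 of the 9, Jun and Egr1, in place of 4, where 6.18% of all genes were higher.

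**Figure D4:**
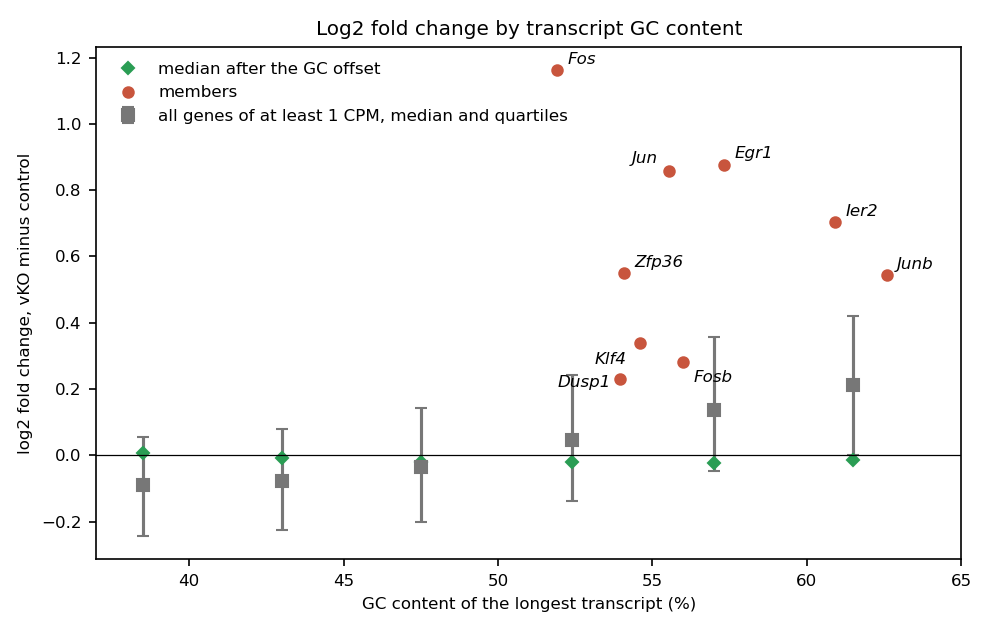
Log2 fold change (vertical axis) against GC content of the longest transcript in percent (horizontal axis) for the tested members (red) and for all genes of at least 1 CPM in classes of GC content (grey squares, median with quartiles), with class medians after the GC offset in green. Class medians climb from -0.09 to 0.21, and each member lies above the median of its class.

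Other genes of the response were read from lists. The 7 lists held 100 distinct genes, of which 97 were tested. Of these, 76 had a log2 fold change above 0, against 50.3% of all genes tested. Myc, 1 of the 76, passed the filter on low counts only through its vKO libraries (13 counts each, against 2 and 11 in control). Among the 97, 17 were higher and 0 lower at an unadjusted p under 0.05 by edgeR, against 7.65% and 6.47% of all genes tested. The median log2 fold change of the 97 was 0.25. The median GC content of the lists ran from 48.4% in the Kruppel-like factors to 56.7% in the MAP kinase phosphatases, against 48.9% over all genes tested. It was 49.2% in the upstream regulators. The part of GC content in these list values was not tested. In edgeR's test 1 of the 97 was called higher and 0 lower. That gene was Rhob, an early-response small GTPase of endosomes and the actin cytoskeleton.

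Rhob had 464 and 591 control counts and 974 and 857 vKO counts, or 19.9 and 19.7 CPM against 36.4 and 31.8. The controls were nearly identical, and both vKO libraries stood well above them. Rhob differed by 0.78 on the log2 scale (SE 0.14, adjusted p 0.0404). Without vKO replicate 1 its log2 fold change was 0.68 and the call was lost. That fit leaves 1 vKO library and assumes that it varies as the control libraries do. Why the call was lost was not tested. With either control library left out, Rhob stayed past the threshold.

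By role, the AP-1 and related bZIP list had 12 of 14 tested genes above 0, with a median of 0.21. Its extremes at 1 CPM or more were Fosl2, a FOS-family subunit (3.17 and 1.77 CPM in control, 4.56 and 4.15 in vKO, log2 fold change 0.83, adjusted p 0.243), and Atf2, a constitutive bZIP factor activated by phosphorylation (-0.15, adjusted p 0.649). Other immediate early transcription factors had 17 of 19 above 0, with a median of 0.37. Among them Bhlhe40, a helix-loop-helix repressor, had 3.64 and 2.27 CPM in control and 6.13 and 6.30 in vKO (log2 fold change 1.09, adjusted p 0.106). Id1, an inhibitor of helix-loop-helix factors, was lowest of those at 1 CPM or more, at -0.05 (SE 0.39).

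Other immediate early effectors had 17 of 24 above 0, with a median of 0.21. At 1 CPM or more they ran from Gadd45a, a growth arrest and DNA damage gene (0.95, adjusted p 0.225), to Spry4, a feedback inhibitor of receptor tyrosine kinase signalling (-0.27, adjusted p 0.748). The MAP kinase phosphatases related to Dusp1 had 7 of 9 above 0 and a median of 0.25, at 1 CPM or more from Dusp7 (0.76, adjusted p 0.422) to Dusp6 (-0.13, adjusted p 0.867). Both paralogs of Zfp36 that were tested lay above 0, Zfp36l2 at 0.61 (adjusted p 0.197) and Zfp36l1 at 0.38 (adjusted p 0.34). The remaining paralog, Zfp36l3, fell under the filter on low counts and lay the other way, with 9 and 30 control counts and 3 and 4 vKO counts.

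Kruppel-like factors other than Klf4 had 11 of 12 above 0 and a median of 0.37, and 3 of them are also on the list of immediate early transcription factors. At 1 CPM or more, Klf13 was highest, with 4.88 and 5.003 CPM in control and 7.85 and 9.49 in vKO (log2 fold change 0.81, adjusted p 0.122), and Klf3 lowest at -0.28. The upstream regulators, meaning SRF and its partners, CREB-family factors and the MAP kinase cascade, lay nearer to all genes, with 13 of 20 above 0 and a median of 0.09. At 1 CPM or more they ran from Rps6ka1, a kinase downstream of ERK (0.41, adjusted p 0.262), to Elk3, a ternary complex factor at serum response elements (-0.54, adjusted p 0.515). Of the genes on these lists, only those named here were read in the fits that leave out a library. Without control replicate 1, where 4.72% of all genes were called higher, Bhlhe40, Fosl2, Zfp36l1, Zfp36l2, Klf13 and Rps6ka1 passed. Without control replicate 2, where 2.53% were, Gadd45a and Klf13 passed.

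**Figure D5:**
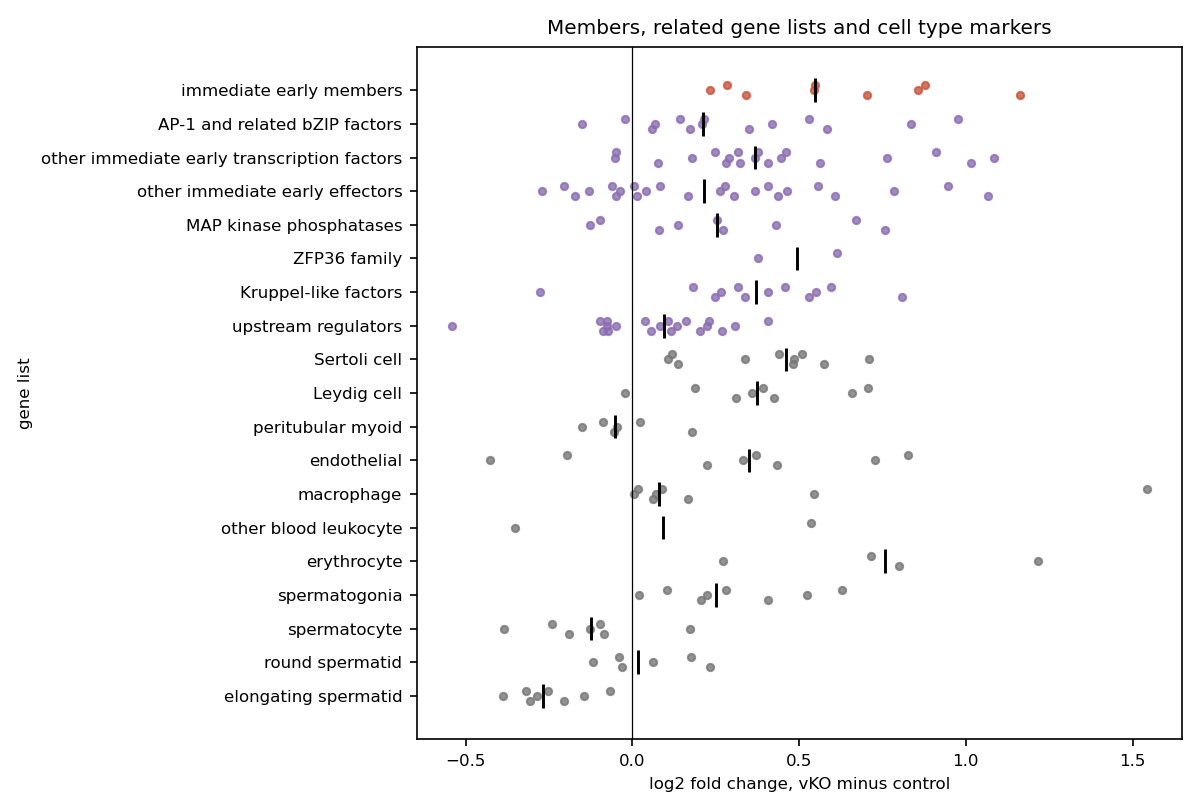
Log2 fold change (horizontal axis, vKO minus control) of each tested gene (points) in the members (red), 7 lists of related genes (purple) and 11 lists of cell type markers (grey), with the median of each list as a black bar. The median is 0.55 for the members and 0.09 for the upstream regulators, and among the markers it runs from -0.27 in elongating spermatids to 0.76 in erythrocytes.

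Markers of several testis cell types also differed between the groups in their summed level. The 10 Sertoli cell markers summed to 1005 to 1050 CPM in control and 1270 to 1444 in vKO. All 10 lay above 0, and their median log2 fold change was 0.46. Only Wt1 among them was called, and it is named after its values were seen (log2 fold change 0.71, adjusted p 0.0418). Its call was lost without robust estimation (adjusted p 0.0501) and without either vKO library. Erythrocyte markers summed to 26.8 to 32.5 CPM against 39.3 to 42.2 (median 0.76, 4 of 4 tested above 0). Hbb-bt, the highest of the 4 at 1.22, passed the filter on low counts only through its vKO libraries. Alas2, the largest part of that sum, overlapped between groups (17.4 and 22.9 CPM against 22.3 and 26.5). Endothelial markers summed to 28.4 to 38.6 CPM against 40.8 to 47.1 (0.35, 6 of 8 above 0). Vwf, the largest part of the endothelial sum, also overlapped (26.1 and 14.2 CPM against 30.8 and 23.5), and Egfl7 was lower in both vKO libraries. Spermatogonia markers stood at 96.9 to 98.4 CPM against 107 to 119 (0.25, 8 of 8). Uchl1, the largest part of the spermatogonia sum, overlapped (39.53 and 33.69 CPM against 42.25 and 36.36). Stra8, Sohlh1 and Nanos3 overlapped too, whereas Zbtb16, Gfra1, Kit and Dmrt1 did not.

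Leydig cell markers overlapped between groups, at 301 to 365 CPM in control and 357 to 478 in vKO (0.38, 7 of 8 above 0). Macrophage markers summed to 64.2 to 119 CPM in control and 90.5 to 108 in vKO (0.08), myoid markers to 228 to 257 and 203 to 250 (-0.05, 2 of 6 above 0), and the 2 other leukocyte markers analysed to 1.16 to 3.9 and 2.09 to 2.85 (0.09). Most of the myoid sum was Actg2 alone, at 179.7 and 175.8 CPM in control and 172.0 and 148.0 in vKO. Elongating spermatid markers were lower in vKO, at 9174 to 10910 CPM in control and 8377 to 8643 in vKO (-0.27, 0 of 8 above 0). Spermatocyte markers (-0.12) and round spermatid markers (0.02) summed to 1090 to 1101 and 771 to 793 CPM in control and to 1018 to 1099 and 801 to 858 in vKO. The 2 duct markers analysed, Crisp1 and Defb20, stayed at or under 0.4 CPM in sum and were not tested. No other marker list had a called gene. The part of cell type content in the differences of the immediate early genes was not tested.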

How the data were processed

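RNA-seq counts of 4 adult mouse testis libraries were analysed, 2 per genotype label. The authors deposited 1 table of raw counts for every gene in each library, per the file headers. Other columns give their mean normalized count (a signal, counts divided by size factors), log2 fold change with standard error, and p-value with adjusted p-value, under DESeq2 column names, per the file headers. HISAT2 2.1.0 and HTSeq 0.6.1p1 are named in the submitters' processing notes. Build, annotation, strand setting and handling of multiply matching reads are not given in the sources used here. No gene had fewer than 10 counts in total. These steps could change the values of low or overlapping genes.

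Counts were fitted with edgeR 4.0.16 (limma 3.58.1, R 4.3.3), using TMM, filterByExpr, robust quasi-likelihood estimation, genotype alone and a prior count of 0.125, over 21132 genes. The SE is the absolute log2 fold change divided by the square root of F. DESeq2 1.42.0 served as an alternative. The fit was tested on simulated data for this comparison with 21132 genes, where 72 of 100 genes changed by 1 on the log2 scale and 96 of 100 changed by 2 were recovered. Of the unchanged genes, 9 were called. Changed genes had a mean of at least 1 CPM, and the simulated spread depended on expression level alone. No GC or library effect was simulated, and no change smaller than 1. The recovery therefore does not measure what the fit could detect for most members. Counts of replicates differed by more than sampling noise (chi-square per degree of freedom 19.4 in control and 7.84 in vKO), so none were merged. Coordinates, GC content, length and transcript sequences come from GENCODE M21 (GRCm38) by identifier, of which 25241 of 25265 matched, and promoters from RefSeq (GRCm38.p6). The GC offset is a spline with 5 degrees of freedom per library.

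The members, lists and tests were chosen with earlier results of these data known. Genes named are Ythdf2, the members, any called gene and the highest and lowest log2 fold change at 1 CPM or more in each related list, and the 5 genes of most similar profile. Alternatives covered scaling, filters, the test, robust estimation, prior count, GC content, the replicate number as a block and leaving out each library.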

Additional observations from a re-analysis of the deposited data

How the results depend on the processing

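The number of tested members above 0 stayed at all that were tested, and the number called lower at 0, under each of the 14 alternatives. The number called higher was 0 in the main analysis and 1 (Jun) with library totals alone. Leaving out 1 library in turn gave 0 to 3, the 3 being Jun, Egr1 and Klf4 without control replicate 1, where 4.72% of all genes were called higher. Over all genes these fits called 30 to 1048 higher and 5 to 523 lower. The median log2 fold change ran from 0.41 without control replicate 2 to 0.70 without control replicate 1. Both groups carry replicate numbers 1 and 2, but the labels do not say what these numbers mark, so no pairing was assumed. Across all genes tested, libraries with the same number deviated together weakly (correlation 0.086, 2 pairs). That value includes genes with few counts, and it cannot decide whether the numbers mark pairs. The number of members called depends on this choice. With the replicate block 2 members were called higher (Jun at an adjusted p of 0.00752 and Egr1 at 0.0278) and 6 of the 9 had an unadjusted p under 0.05, where 2.97% of all genes were called higher, and with the GC offset and replicate block 0. Over all genes the calls were 59 higher and 24 lower in the main analysis, 627 and 390 with the replicate block, 181 and 37 with library totals alone, 137 and 80 by the DESeq2 Wald test, 79 and 66 with the GC offset, 184 and 205 with the GC offset and replicate block, and 50 and 15 without robust estimation. Of the related genes, only those named above were read under the alternatives. Among these, Id1 changed sign with library totals alone (0.00698). Leaving out 1 library in turn, Id1 ran from -0.253 to 0.194 and Dusp6 from -0.351 to 0.0633. For these changes the cause was not tested. Depth limits Fos and Atf3, whose control libraries held at most 9 counts.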
